A study of Mus musculus with 9 samples.

Results

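The 10 genes described here carry glucose from the cell surface to lactate: the glucose transporter Slc2a1 and the glycolytic enzymes Hk2, Pfkp, Aldoa, Gapdh, Pgk1, Pgam1, Eno1, Pkm and Ldha. They were taken by name from the 27998 genes of a table of unique molecular identifier (UMI) counts per single cell of mouse liver, and all 10 are in it. Each was followed through cell classes set from marker genes, and through 3 groups of C57BL/6 mice, one library at a time. The WT group (n = 2 libraries) carried ROSA26-rtTA-IRES-EGFP without the tetYAP transgene and received doxycycline food for 7 days. The YAP3d group (n = 4) and the YAP7d group (n = 3) carried tetYAP and received doxycycline for 3 or 7 days. Per the study's methods, the rtTA activator depended on Cre expressed from the albumin promoter, so the YAP S127A transgene was switched on in hepatocytes, and cells were isolated from digested livers by a protocol meant for non-hepatocytes. The values below therefore concern mainly cells in which the transgene was not driven.

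Glycolysis splits glucose into pyruvate in the cytoplasm and yields ATP without oxygen, and lactate dehydrogenase then regenerates the NAD that the pathway consumes. The genes chosen are the forms typical of immune, endothelial and dividing cells, whereas hepatocytes are known to use other isozymes at several steps, among them the liver pyruvate kinase (Pklr). Transcription of this set is classically under HIF and MYC, and macrophages, dendritic cells and lymphocytes are known to raise it on activation. YAP, with its TEAD partners, drives growth programmes in the cells in which it is active.

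The table held 8562 cells and 63380159 UMIs, with 293 to 2554 cells per library, and 8527 cells had at least 200 genes. Median UMIs per cell were 3190.5 and 4358 in WT, 3380 to 5069.5 in YAP3d and 5717 to 11471.5 in YAP7d. Clusters were named from markers, with the 10 glycolysis genes and the proliferation genes kept out of the clustering, and 14 classes were named. The UMIs of each class were added up within a library, and levels are given as CPM, the count scaled to 1000000 UMIs of that sum, which removes total depth but not its effect on precision. Classes below 10 cells in a library gave no value there, which left 7 classes testable across all 3 groups; of these, the conventional dendritic cell-like class joins the type 1 and type 2 dendritic clusters. The libraries carried 46 cell barcodes that occur in more than 1 library. The Gm10709 gene stood at 347 CPM or more in YAP3d replicates 1 and 2 and in all 3 YAP7d libraries, and at 11.2 CPM or less in the other 4, so this split overlaps the groups. Yap1 was 11.04 to 15.7 CPM over all cells in WT and 1.52 to 5.53 in YAP7d, while in hepatocyte-like cells it was 22.2 to 80.5 CPM in YAP3d and 73.3 to 147 in YAP7d; the 2 WT libraries held 3 hepatocyte-like cells in all, and whether the transgene counts under Yap1 was not analysed here.

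Upstream sequence was read for all 10 genes from RefSeq, in 250-base windows that end just before the start sites used, in GRCm38.p6, the assembly also called mm10. For Pfkp, Aldoa, Gapdh and Ldha, every window lay within the gene's coordinates given below, so any start further upstream was not read. The genes have 16 such windows. Both strands were searched for ACGTG, the core of the HIF response element, for CACGTG, the E-box bound by MYC and USF, and for GGAATG, a TEAD site. ACGTG was present in 8 of the 16 windows (7 of 10 genes) and in 16.6% of all 32851 windows of that length, CACGTG in 1 of 16 and in 6.02%, and GGAATG in 3 of 16 and in 12.6%. Some windows overlap, so that 1 ACGTG site is counted in 2 windows of Aldoa and 1 GGAATG site in 2 windows of Eno1; the remaining GGAATG window is of Aldoa. The windows of Hk2 and Gapdh and of the first start used for Ldha are printed because these genes carry the changes described below, with every match in capitals.

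Ldha (chr7:46845554-46845803, plus strand): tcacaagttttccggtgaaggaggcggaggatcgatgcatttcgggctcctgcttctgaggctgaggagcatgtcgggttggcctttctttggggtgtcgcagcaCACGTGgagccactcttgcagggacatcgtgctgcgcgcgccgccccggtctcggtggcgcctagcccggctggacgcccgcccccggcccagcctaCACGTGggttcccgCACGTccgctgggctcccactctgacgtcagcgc

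Hk2 (chr6:82774455-82774704, minus strand): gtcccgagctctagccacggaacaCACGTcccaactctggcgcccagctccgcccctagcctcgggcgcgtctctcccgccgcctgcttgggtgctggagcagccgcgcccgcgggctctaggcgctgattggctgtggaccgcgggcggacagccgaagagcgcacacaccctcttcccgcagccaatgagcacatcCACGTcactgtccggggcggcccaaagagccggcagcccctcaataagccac

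Gapdh (chr6:125165774-125166023, minus strand): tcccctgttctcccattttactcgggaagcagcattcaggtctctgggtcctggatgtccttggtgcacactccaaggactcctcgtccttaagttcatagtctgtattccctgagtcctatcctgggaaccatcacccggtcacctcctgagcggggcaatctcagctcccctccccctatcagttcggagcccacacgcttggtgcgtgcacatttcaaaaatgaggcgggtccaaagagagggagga

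In the printed Ldha window, CACGTG began 145 and 48 bases before the start, each overlapping ACGTG matches, and a further ACGTG lay 34 bases before it. The Hk2 window held ACGTG at 226 and 52 bases before the start, and the Gapdh window and that of the second Ldha start (chr7:46846832-46847081) held none of the 3 motifs. These matches are letters in a window, and no binding was measured.

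The first steps are glucose entry and its phosphorylation. Slc2a1 (chromosome 4, 119108745 to 119137330), the transporter that brings glucose into most cells, was sparse everywhere. Its mean was 71.1 ± 43.4 CPM (SD, n = 4 libraries) in neutrophil-like cells, 27.6 ± 8.23 in B cell-like, 25.98 ± 11.9 in NK cell-like, 14.2 ± 5.81 in T cell-like, 7.48 ± 5.78 in macrophage-like and 4.23 ± 3.32 in endothelial cell-like cells (SD, n = 9 each). Neighbours in this order were within 1 SD of each other, apart from neutrophil-like against B cell-like and T cell-like against the dendritic type 1-like class below it. Neutrophil-like cells were higher than B cell-like cells in 3 of 4 shared libraries, and T cell-like higher than dendritic type 1-like cells in 2 of 4. The neutrophil-like mean pools the groups and rests on 3 to 9 UMIs per library. It ran from 117 CPM in WT replicate 2 to 12.4 in YAP7d replicate 3. Slc2a3, the high-affinity transporter, was again highest in neutrophil-like cells at 159.8 ± 41.5 CPM (n = 4), and it was 35.5 ± 15.97 in NK cell-like and 2.82 ± 2.34 in macrophage-like cells (n = 9).

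Hk2 (chromosome 6, 82725025 to 82774454), the hexokinase that phosphorylates glucose to trap it, marked the myeloid classes. Its level was 157 ± 67.7 CPM in macrophage-like cells (SD, n = 9), 122 ± 52.9 in dendritic type 2-like (n = 8), 90.5 ± 12.4 in dendritic type 1-like (n = 4) and 59.7 ± 40.4 in monocyte-like cells (n = 7), against 4.75 to 14.2 CPM on average in NK, B, T and endothelial cell-like cells. Within libraries, macrophage-like cells exceeded NK, B, T and endothelial cell-like cells in all 9. The sister enzyme Hk3 was 75.9 ± 22.5 CPM in macrophage-like, 60.6 ± 30.3 in neutrophil-like and 39.9 ± 14.8 in monocyte-like cells but only 19.1 ± 9.16 in dendritic type 1-like and 10.9 ± 12.3 in dendritic type 2-like cells, whereas Hk1 was 49.1 ± 15.1 in NK cell-like, 43.6 ± 12.5 in T cell-like and 40.5 ± 11.6 in endothelial cell-like cells. In the NK, T, B and endothelial cell-like classes the mean of Hk1 ranged from 19.4 to 49.1 CPM.

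Pfkp (chromosome 13, 6579874 to 6649060), a subunit of phosphofructokinase that commits sugar to the pathway, was 120.3 ± 27.1 CPM in dendritic type 1-like (n = 4), 116 ± 34.3 in NK cell-like (n = 9) and 103 ± 66.2 in dendritic type 2-like cells (n = 8), and 23.4 ± 7.48 in endothelial and 21.9 ± 5.16 in macrophage-like cells (n = 9 each). Macrophage-like cells had the highest mean of Hk2 and, hepatocyte-like cells aside, the lowest of Pfkp, but both places were within the spread: the next class for Hk2, dendritic type 2-like, was 34.8 CPM lower, and for Pfkp macrophage-like cells were the higher of the last 2 in 5 of 9 libraries.

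The enzymes that follow split the sugar and yield ATP. Aldoa (chromosome 7, 126795234 to 126800994), the aldolase that cleaves the 6-carbon sugar, stood at 641 ± 113 CPM in neutrophil-like (n = 4) and 555 ± 168 in monocyte-like cells (n = 7) and between 289 and 367 in endothelial, B, macrophage, NK and T cell-like cells. Gapdh (chromosome 6, 125161852 to 125166467), which makes the first NADH of the pathway, was 1168 ± 267 in monocyte-like (n = 7) and 1115 ± 538 in macrophage-like cells, and 809 ± 203 in T, 680.1 ± 379 in endothelial, 668 ± 274 in NK and 385 ± 131 in B cell-like cells (n = 9 each). Pgk1 (chromosome X, 106187100 to 106203699), the first ATP-yielding kinase, was low in all classes (14.6 to 44.6 CPM outside hepatocyte-like cells), and its classes could not be ranked beyond their spread. Pgam1 (chromosome 19, 41911871 to 41918665), phosphoglycerate mutase, and Eno1 (chromosome 4, 150236708 to 150248879), enolase, reached 271 ± 55.6 and 599 ± 131 CPM in monocyte-like cells, and in endothelial cell-like cells 124 ± 44.6 and 116 ± 52.7.

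Pkm (chromosome 9, 59656576 to 59679372), the pyruvate kinase of muscle, immune and dividing cells, was 876 ± 183 CPM in neutrophil-like and 811 ± 95.7 in monocyte-like cells, above the next class by more than the spread, and 188 ± 31.6 in B cell-like cells. Ldha (chromosome 7, 46842274 to 46855627), the lactate dehydrogenase subunit that favours lactate formation, lay between 410.4 and 601 CPM in 8 of the classes, with B cell-like cells at 178 ± 27.3. B cell-like cells had the lowest mean of all classes for Gapdh, Pgk1, Pgam1 and Ldha. For Pgk1 and Pgam1 this place was within the spread, with the next class, plasmacytoid dendritic cell-like, 6.63 and 20.4 CPM higher. For Pgk1 that class was the higher in only 1 of 4 shared libraries. The partner subunit Ldhb was highest in endothelial cell-like (99.9 ± 42.3 CPM) and plasmacytoid dendritic cell-like cells (99.2 CPM on average).

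**Figure D1:**
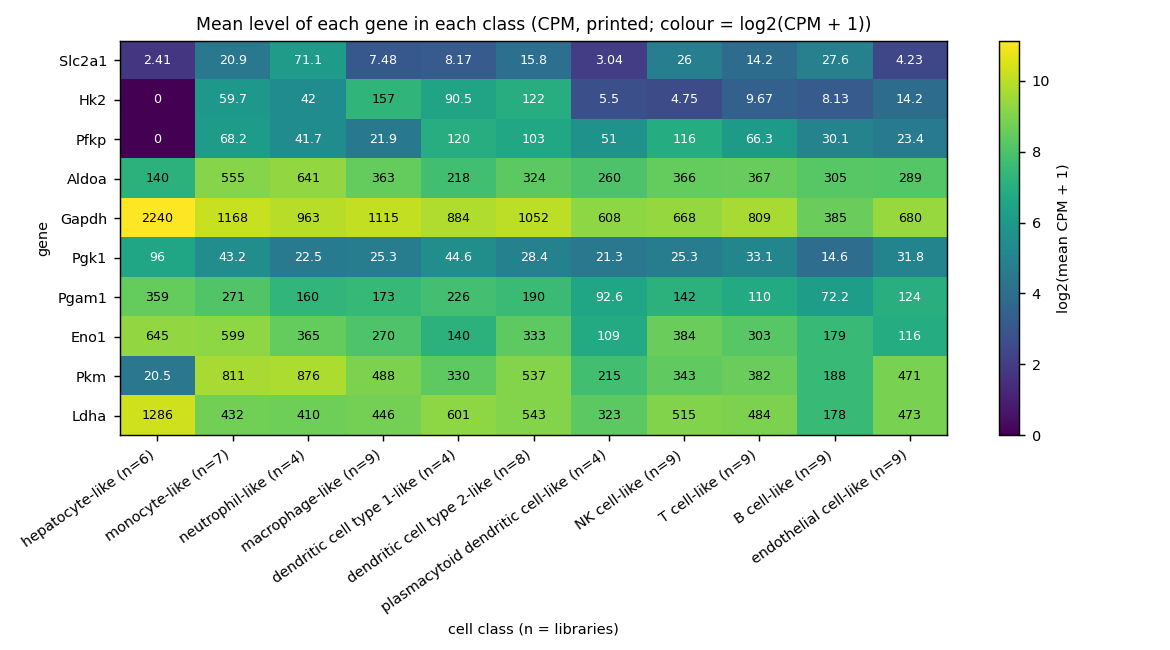
Heat map of the mean level of each of the 10 genes (rows) in 11 cell classes (columns, with the number of libraries), each cell printing the mean CPM over libraries and coloured by log2 of the mean CPM plus 1. Hepatocyte-like cells are highest for Gapdh, Pgk1, Pgam1, Eno1 and Ldha and empty for Hk2 and Pfkp, while macrophage-like cells are highest for Hk2.

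Hepatocyte-like cells had the highest mean level of some of the genes and hardly any counts of others. They were highest in Gapdh (2240.0 ± 374 CPM), Pgam1 (359 ± 73.7), Eno1 (645 ± 146), Pgk1 (96.05 ± 55.1) and Ldha (1286 ± 522), each over 6 libraries, none of them WT. For Eno1 and Pgk1 this lead was within the spread, with the next class 45.9 and 51.4 CPM lower. In the same 103 cells, Hk2 and Pfkp had 0 of 683940 UMIs, which allows up to 4.39 CPM over the 6 libraries, and Slc2a1 had 2 UMIs. Pkm was 20.5 ± 14.9 CPM. Counterparts known from hepatocytes were measured in these cells: Slc2a2 at 46.7 ± 48.6 CPM and Pklr at 31.6 ± 32.7, and the gluconeogenic phosphatase Fbp1 was 1502 ± 581 (Pklr and Fbp1 were named after their values were seen). No WT library held 10 hepatocyte-like cells, so no comparison with WT was made in the cells in which the transgene was driven. Between YAP3d and YAP7d, hepatocyte-like Ldha was 1248, 688 and 669 CPM in 3 libraries and 1838, 1823 and 1449.8 in 3, with no overlap, and Gapdh was 1771, 1842 and 2609 against 2488, 2148 and 2582, with overlap, neither of which was tested.

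The main comparison asks which of the 10 genes differed after 7 days of YAP induction from WT within each class. In 60 tests of a gene in a class that passed the filter on low counts, 9 were called at an adjusted p below 0.05 by edgeR's quasi-likelihood test, all of them higher in YAP7d, and 41 of 60 fold changes were above 0. Over all genes, 5.12% of 37079 such tests were called. The calls fell in endothelial, macrophage and NK cell-like cells, and Gapdh and Ldha were called in each of these. In 33 of the 60 tests the YAP7d libraries did not overlap the WT libraries, against 34.7% of the 37079 tests over all genes. No WT library was high in Gm10709 and all 3 YAP7d libraries were, so this split and the comparison can be told apart only through the YAP3d libraries. With a term for it in the fit, endothelial Gapdh was still called (log2 fold change 1.60, adjusted p = 0.0187, edgeR) and the other 8 calls were lost, among them endothelial Ldha at 1.09 (adjusted p = 0.059), macrophage-like Gapdh at 0.98 (adjusted p = 1) and NK cell-like Gapdh at 1.07 (adjusted p = 0.455). Where nothing says that the libraries of a group came from separate mice, the p-values measure the spread between these libraries, which may in part be technical.

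Endothelial cell-like cells showed the clearest rise. Gapdh was 332 and 490.0 CPM in WT, 465, 471, 448 and 513 in YAP3d and 1039, 875 and 1489 in YAP7d, so the 3 YAP7d libraries lay above the 6 others. It rose 2.86-fold over WT, a log2 fold change of 1.51 ± 0.23 (SE) with adjusted p = 0.000152 in edgeR. Ldha was 262 and 416 in WT, 364, 378, 321 and 392 in YAP3d and 745, 591 and 791 in YAP7d, again without overlap (log2 fold change 1.10 ± 0.20 (SE), adjusted p = 0.000629). Pkm went from 298 and 392 CPM in WT to 727, 586 and 850.4 in YAP7d, with YAP3d at 361, 425, 267 and 334 (log2 fold change 1.11 ± 0.21 (SE), adjusted p = 0.000778). These 3 genes share the pattern that YAP3d libraries sat with WT.

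Pgam1 in endothelial cell-like cells was 88.7 and 92.04 CPM in WT and 199, 144 and 186 in YAP7d, and it rose by a log2 fold change of 1.01 ± 0.23 (SE) (adjusted p = 0.00423, edgeR). Eno1 was 72.1 and 125 in WT and 122, 180.4 and 215 in YAP7d. One YAP7d library lay below one WT library for Eno1, and its call (log2 fold change 0.87 ± 0.29 (SE), adjusted p = 0.0407) was the weakest of the 5. The other 4 genes tested did not pass: Hk2 was at 1.13 ± 0.58 (SE) (adjusted p = 0.193), Aldoa at 0.24 ± 0.22 (SE) (adjusted p = 0.492), Pgk1 at 0.62 ± 0.41 (SE) (adjusted p = 0.316) and Pfkp at -0.54 ± 0.40 (SE) (adjusted p = 0.385). Slc2a1 was below the filter, at 2.36 and 3.02 CPM in WT and 9.03, 4.51 and 10.03 in YAP7d. In total 5 of 9 tested genes were called in endothelial cell-like cells, against 18.5% of all 7467 genes, and their median log2 fold change was 1.01, against -0.04 over all genes.

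Other measures moved with the endothelial values in the same libraries. In YAP7d, 50% to 58.3% of endothelial cell-like cells had more than 0.1% of their UMIs from the proliferation genes, against 8.70% to 9.36% in WT, and 30 of 35 tested proliferation genes rose. The summed level of the 15 endothelial markers was 10579 to 11101 CPM in YAP7d and 22440 to 25361 in WT, with 11 of the 15 lower. In the same cells the summed stellate or fibroblast markers were 114 to 157 CPM in WT and 22.6 to 40.6 in YAP7d (3 of 3 tested lower), macrophage markers 1531 to 1854 and 1030 to 1196 (2 of 12 lower) and hepatocyte markers 146 to 260 and 94.8 to 122 (1 of 7 lower). Dendritic type 1 markers were 137 to 142 CPM in WT and 221 to 293 in YAP7d (1 of 2 tested higher and 1 lower), dendritic type 2 markers 115 to 193 and 221 to 249 (1 of 1 higher) and erythroid markers 250.2 to 2145 and 9.03 to 18.04 (0 of 4 called), and the part of these lists in the values was not tested. Median UMIs per cell were 7403.5 to 13760 in YAP7d and 2384 to 4668.5 in WT. Of the YAP7d endothelial cell-like cells, 85.6% fell in 1 cluster that held 2.44% of those of WT and had Fabp4 as its top gene. At resolution 2, the endothelial clusters with Fabp4 among their top genes differed in their mix of groups. One, with Rspo3 and Wnt2 also among its top genes, held 16 WT and 2 YAP7d cells, and the other 1 WT and 93 YAP7d cells. The part of this mix in the values within the cluster of 85.6% was not tested. Without the cells over 0.1% proliferation UMIs, Gapdh stood at 1.51 (adjusted p = 0.000103, edgeR) and all 5 genes were still called. YAP7d replicates 1 and 2 held 24 and 23 endothelial cell-like cells before this cut, which took out 58.3% and 56.5%. As the limit is a share, cells of many UMIs that stay may still hold several proliferation UMIs. Leaving out cells of 2 or more proliferation UMIs is not reported for this class. Within the cluster of 85.6% alone, where WT had 1 library of 10 or more cells, Gapdh stood at 0.96. Without WT replicate 1 the Eno1 value was 0.57 (adjusted p = 0.297), without YAP3d replicate 3 0.87 (adjusted p = 0.0535), without YAP7d replicate 2 0.93 (adjusted p = 0.0547) and without YAP7d replicate 3 0.61 (adjusted p = 0.207).

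**Figure D2:**
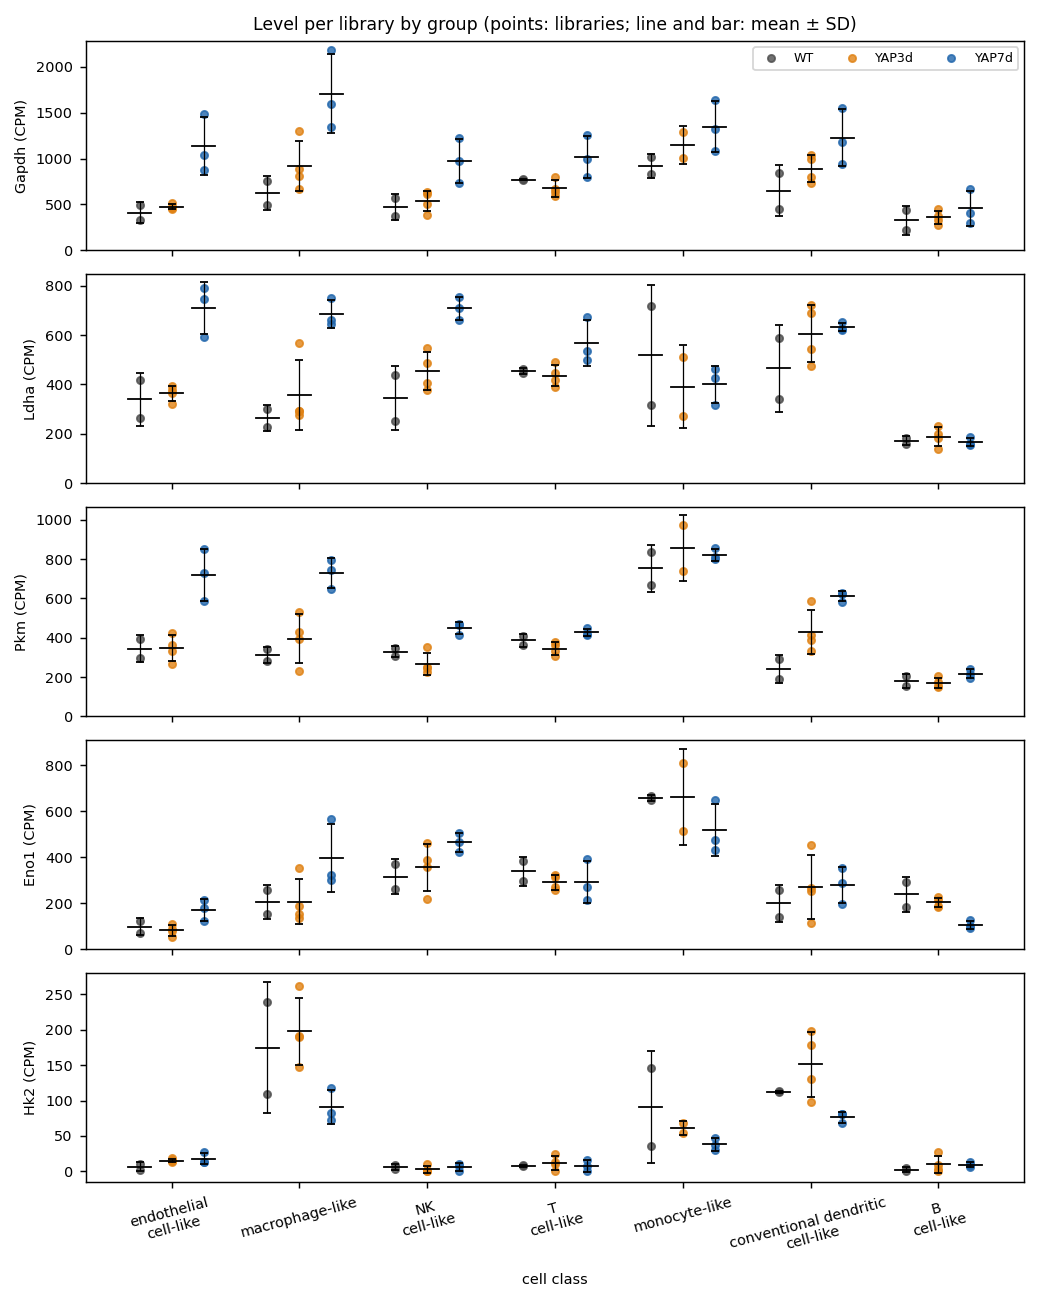
Level of Gapdh, Ldha, Pkm, Eno1 and Hk2 in CPM (vertical axes) in the 7 tested classes, 1 point per library, with WT in grey, YAP3d in orange and YAP7d in blue and a line and bar for each group's mean and SD. The 3 YAP7d libraries lie above both WT libraries for Gapdh, Ldha and Pkm in endothelial, macrophage and NK cell-like cells, while for Hk2 in macrophage-like cells they lie below the 4 YAP3d libraries.

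Macrophage-like cells, which in liver are largely Kupffer cells and cells derived from monocytes, had 2 called genes, Gapdh and Ldha. Gapdh was 490.2 and 759 CPM in WT, 809, 1303, 888 and 669.9 in YAP3d and 1595, 1339 and 2182 in YAP7d. It rose 2.63-fold over WT (log2 fold change 1.40 ± 0.33 (SE), adjusted p = 0.0306, edgeR). Ldha was 229 and 301 in WT, 276, 568, 291 and 293 in YAP3d and 662, 645 and 751 in YAP7d (log2 fold change 1.30 ± 0.33 (SE), adjusted p = 0.039). The YAP7d libraries lay above all others for both genes, with YAP3d replicate 2 the closest.

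Pkm in macrophage-like cells was 283 and 342 CPM in WT and 744, 646 and 795 in YAP7d, without overlap, and just missed the threshold (log2 fold change 1.16 ± 0.32 (SE), adjusted p = 0.0556, edgeR). Pgam1 stood at 0.91 ± 0.37 (SE) (adjusted p = 0.184), Eno1 at 0.86 ± 0.40 (SE) (adjusted p = 0.27) and Aldoa at 0.63 ± 0.32 (SE) (adjusted p = 0.309), each with YAP7d libraries above the WT libraries. Pfkp at 0.00 ± 0.50 (SE) and Pgk1 at -0.24 ± 0.53 (SE) had estimates near or below 0, with adjusted p of 0.999 and 0.86. The 2 called genes of 9 tested compare with 2.21% of all 6663 genes, and the median of the 9 was 0.86, against 0.02 over all genes.

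The macrophage calls were lost under several changes to the cells or libraries. Both were lost without the cells past the proliferation limit (Gapdh 1.32 (adjusted p = 0.0955), Ldha 1.30 (adjusted p = 0.165)), without cells of 2 or more proliferation UMIs (Gapdh 0.63 (adjusted p = 0.996)), without cells under 4000 UMIs (Gapdh 1.08 (adjusted p = 0.298)), with at least 30 cells per library (Gapdh 1.41 (adjusted p = 0.109)) and with stricter cell limits (Gapdh 1.44 (adjusted p = 0.0584)). Median UMIs per macrophage-like cell were 1777 to 7018.5 in WT and 9132 to 22178 in YAP7d. The summed level of the 15 endothelial markers in this class was 959 to 1288 CPM in WT and 302 to 342.5 in YAP7d (6 of 13 tested lower). Macrophage markers were 28442 to 35820 and 17783 to 25817 (1 of 14 lower), B cell markers 218 to 252 and 127 to 155 (1 of 4 lower). Monocyte markers were 1318 to 1884 and 2087 to 3066 (0 of 11 called). Heat shock and dissociation genes summed to 7168 to 12835 CPM in WT and 5578 to 6736 in YAP7d. The part of these measures was not tested. For Gapdh the value was 1.16 (adjusted p = 0.256) without WT replicate 1, 1.85 (adjusted p = 0.287) without WT replicate 2, 1.39 (adjusted p = 0.0706) and 1.36 (adjusted p = 0.057) without YAP3d replicates 1 and 3, and 1.11 (adjusted p = 0.106) without YAP7d replicate 3. Ldha likewise lost its call without any 1 of these 5 libraries, at log2 fold changes from 1.17 without WT replicate 1 to 1.62 without WT replicate 2, and also without YAP7d replicate 1 (1.36 (adjusted p = 0.0575)) or replicate 2 (1.39 (adjusted p = 0.0587)). Without YAP3d replicate 2, 5 genes were called, and without YAP3d replicate 4, 4 genes. The shares of all genes called in these fits are not given here, so the counts cannot be set against them. In that YAP3d replicate 2, 70.0% of macrophage-like cells passed the proliferation limit, against 10.6% to 16.1% in WT and 65.1% to 72.0% in YAP7d.

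Hk2 went the other way in macrophage-like cells. It was 109 and 239.9 CPM in WT, 189, 148, 191 and 262 in YAP3d and 118, 82.2 and 73.05 in YAP7d. The YAP7d libraries lay below all 4 YAP3d libraries and overlapped WT replicate 1. The difference from WT did not pass the test (log2 fold change -1.11 ± 0.34 (SE), adjusted p = 0.0784, edgeR), nor did that from YAP3d (-1.13 ± 0.29 (SE), adjusted p = 0.0885). Without WT replicate 2 the value was -0.25 (adjusted p = 0.903), whereas the call was made without YAP3d replicate 2, at -1.13 (adjusted p = 0.0182), or replicate 4, at -1.10 (adjusted p = 0.0434).

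Whether a change differed between classes was tested for macrophage-like cells against each of the other 6 classes, and from WT to YAP7d 2 of 56 such tests of the 10 genes were called, against 0.508% of those over all genes. One was Hk2 against endothelial cell-like cells. Macrophage-like minus endothelial cell-like, the change from WT to YAP7d was -2.37 ± 0.56 on the log2 scale (SE, adjusted p = 0.0104, edgeR interaction with the library as a block over 9 libraries). Against the other 5 classes the difference of Hk2 was not called, with adjusted p from 0.361 (B cell-like) to 0.726 (monocyte-like). The endothelial call was lost without WT replicate 2 (-2.98, adjusted p = 0.479), YAP7d replicate 1 (-2.26, adjusted p = 0.0515) or YAP7d replicate 3 (-2.23, adjusted p = 0.174). Endothelial Hk2 rested on 2 to 57 UMIs per library.

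The macrophage-like class was made of 3 clusters whose proportions moved with the groups. Cluster 15, high in Kupffer markers, held 53.6% of the macrophage-like cells in WT and 0.258% in YAP7d. Cluster 22, in which these markers were lower (Clec4f at 100.8 CPM against 4192 in cluster 15 and 2668 in cluster 16, Timd4 at 9.17 against 539 and 480, and Cd5l at 662 against 4355 and 4976), held 12.4% in WT and 50.9% in YAP7d. Cluster 16, also high in them, held 34.0% in WT and 48.8% in YAP7d. Hk2 was 273 CPM in cluster 15 in the 1 WT library with enough cells and 325 in the 1 such YAP3d library. In cluster 22 it was 65.1 ± 8.19 CPM in YAP7d (n = 3). Within cluster 16, Hk2 was 141 ± 33.4 in WT (n = 2) and 110.5 ± 31.5 in YAP7d (n = 3), with overlapping libraries. Within cluster 16, of which WT replicate 2 held 11 cells, Gapdh was 665 ± 23.1 CPM in WT and 1619 ± 315 in YAP7d. Ldha there was 324 ± 96.7 and 670.3 ± 28.8, and Pkm 324 ± 125 and 667 ± 78.97. In clusters 15 and 16 summed, Gapdh was called at 1.27 (adjusted p = 0.0441) and Ldha stood at 1.19 (adjusted p = 0.0678). The clusters were drawn from the same cells, so these levels are a description. At resolution 2, the macrophage-like clusters with Fabp7, Cd5l and Clec4f among their top genes, as in cluster 16, differed in depth. One stood at 0.501 times the median UMIs of its libraries, had hemoglobin genes among its top genes, and held 22 WT and 42 YAP7d cells. The other stood at 2.042 times and held 10 WT and 337 YAP7d cells. How far the groups differed in this way within cluster 16 was not tested.

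**Figure D3:**
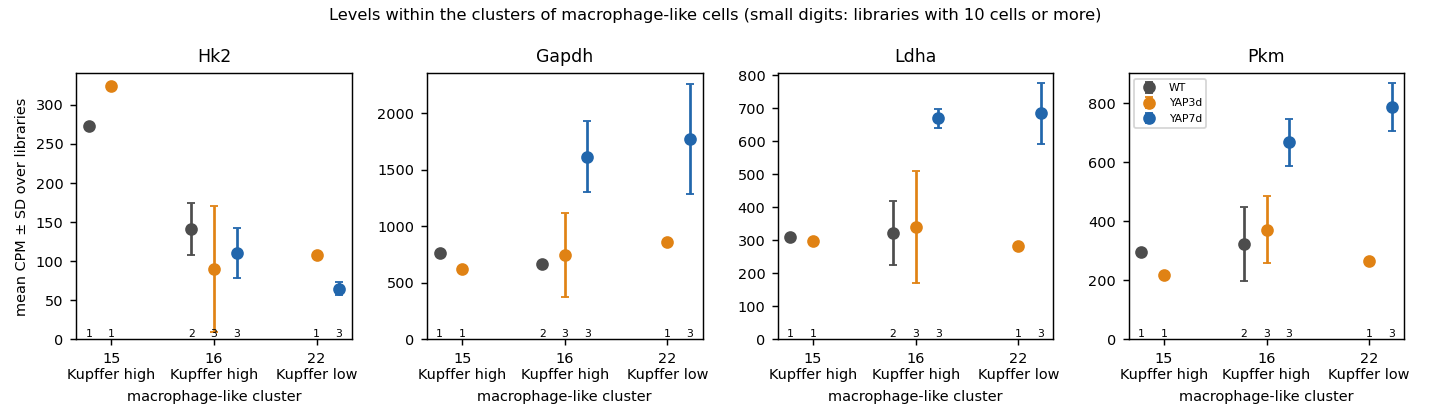
Mean level of Hk2, Gapdh, Ldha and Pkm in CPM (vertical axes, bars for 1 SD over libraries) within the 3 macrophage-like clusters (horizontal axes) for WT, YAP3d and YAP7d, with the number of libraries of 10 or more cells at the foot. Hk2 is highest in cluster 15, which YAP7d libraries hardly contain, and Gapdh, Ldha and Pkm are higher in YAP7d than in WT within cluster 16.

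NK cell-like cells, the innate lymphocytes abundant in liver, had 2 called genes of 8 tested, against 8.92% of all 4014 genes. Ldha was 252 and 438 CPM in WT, 486, 549, 406 and 377 in YAP3d and 755, 711 and 661 in YAP7d (log2 fold change 1.09 ± 0.24 (SE), adjusted p = 0.00559, edgeR). Gapdh was 374 and 573 in WT, 507, 636, 390.2 and 609.6 in YAP3d and 970.3, 734 and 1219 in YAP7d (log2 fold change 1.15 ± 0.27 (SE), adjusted p = 0.0128). For both genes the YAP7d libraries lay above all others. Pgam1 stood at 0.90 ± 0.30 (SE) (adjusted p = 0.0654), Eno1 at 0.64 ± 0.26 (SE) (adjusted p = 0.132) and Pkm at 0.56 ± 0.23 (SE) (adjusted p = 0.135), and Aldoa was lower in each YAP7d library than in each WT library without passing the test (-0.35 ± 0.22 (SE), adjusted p = 0.368).

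Other measures moved with the NK values, and their part was not tested. Of the NK cell-like cells, cluster 0 held 56.3% in WT and 12.9% in YAP7d, and cluster 6 held 43.8% and 87.1%; within cluster 6 alone Gapdh stood at 1.14 (adjusted p = 0.0427) and Ldha at 1.16 (adjusted p = 0.0373), both called. The summed level of the 12 T cell markers was 1688 to 1702 CPM in WT and 165 to 435 in YAP7d (1 of 7 tested lower), that of the 14 dendritic type 2 markers 2188 to 2505 and 362 to 608 (1 of 2 lower), and that of the 14 macrophage markers 93.5 to 194 and 242 to 653 (3 of 4 higher). The 10 dendritic type 1 markers summed to 441 to 467 CPM in WT and 581 to 786 in YAP7d (1 of 1 tested higher). The share of cells past the proliferation limit was 15.9% to 16.7% in WT and 44.0% to 67.1% in YAP7d. Without those cells, neither gene was called: Ldha was 0.48 (adjusted p = 0.441) and Gapdh 0.57 (adjusted p = 0.32). Both calls were also lost without WT replicate 1, at 0.79 (adjusted p = 0.204) for Ldha and 0.90 (adjusted p = 0.213) for Gapdh.

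**Figure D4:**
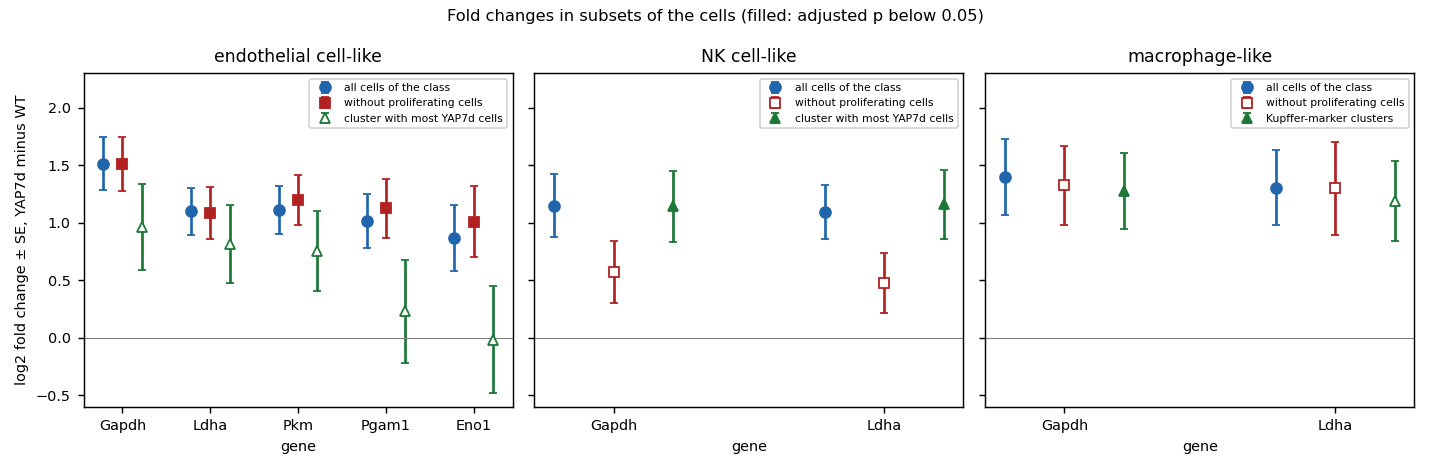
Log2 fold change of YAP7d over WT (vertical axis, bars of 1 SE) for the called genes of endothelial, NK and macrophage-like cells, in all cells of the class (circles), without cells over 0.1% proliferation UMIs (squares, keyed as without proliferating cells) and in the clusters named in each key (triangles), filled where the adjusted p was below 0.05. Without the cells over that limit, Gapdh and Ldha in NK cell-like cells are at 0.57 and 0.48, and Gapdh in endothelial cell-like cells is at 1.51.

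In the other 4 classes no gene was called between YAP7d and WT by edgeR. T cell-like cells had 0 of 9 (0 by DESeq2), against 0% of all genes called, and 2 of 9 at an unadjusted p below 0.05, against 8.28% of all genes. Their Gapdh was 776 and 764 CPM in WT and 990.0, 802 and 1253 in YAP7d, higher without overlap but not called (0.47 ± 0.24 (SE), adjusted p = 0.648). The proliferation limit was passed by 25.1% to 38.5% of YAP7d and 9.24% to 14.9% of WT T cell-like cells. Slc2a1, tested in T and monocyte-like cells only, was 9.10 and 6.63 CPM in WT and 11.6, 26.5 and 14.8 in YAP7d in T cell-like cells (1.18 ± 0.52 (SE), adjusted p = 0.552) and 13.3 and 11.8 against 23.7, 22.4 and 21.4 in monocyte-like cells (0.89 ± 0.61 (SE), adjusted p = 0.804), higher without overlap in both and called in neither. Monocyte-like cells had 0 of 10 (0 by DESeq2), against 0.129% of all genes, and 1 of 10 unadjusted, against 7.28%, with a median of -0.18. Monocyte-like Gapdh was 1012 and 831 CPM in WT and 1324, 1086 and 1633 in YAP7d (0.60 ± 0.26 (SE), adjusted p = 0.637).

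Conventional dendritic cell-like cells had 0 of 9 (1 by DESeq2), against 0% of all genes, and 2 of 9 unadjusted, against 8.05%. The gene that DESeq2 called was Pkm, at 192 and 293 CPM in WT, 330.1, 586, 412 and 387 in YAP3d and 581, 623 and 628 in YAP7d (1.22 ± 0.27 (SE), adjusted p = 0.113 in edgeR). The mix of this joined class moved too, from 35 type 1-like and 37 type 2-like cells in WT to 61 and 188 in YAP7d, and Pkm was 330.4 ± 106 CPM in type 1-like (n = 4) and 537 ± 171 in type 2-like cells (n = 8). The summed level of the 10 type 1 markers was 2960 to 3946 CPM in WT and 1143 to 1985 in YAP7d, and its part in the Pkm and Hk2 values was not tested. Hk2 was 112 and 113 in WT and 81.4, 81.02 and 67.7 in YAP7d in these cells, lower without overlap and not called (-0.64 ± 0.30 (SE), adjusted p = 0.619). B cell-like cells had 0 of 6 (0 by DESeq2), against 0.0448% of all genes, and 1 of 6 unadjusted, against 4.12%. Their Eno1 was 185 and 293 CPM in WT, 186, 228, 214 and 189.6 in YAP3d and 91.97, 99.8 and 126 in YAP7d, so that the YAP7d libraries lay below all others, and it did not pass the test (-1.16 ± 0.31 (SE), adjusted p = 0.348).

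The second of these calls was Eno1 against B cell-like cells. Its change from WT to YAP7d was 2.06 ± 0.47 higher on the log2 scale in macrophage-like than in B cell-like cells (SE, adjusted p = 0.0276, edgeR interaction), and its change from YAP3d was 1.86 ± 0.40 higher (adjusted p = 0.0283). From YAP3d to YAP7d, 2 of 56 tests were called, against 0.531% over all genes. The Eno1 difference from WT to YAP7d was lost without WT replicate 1 or 2 or YAP7d replicate 2 or 3, with adjusted p from 0.0563 to 0.584. For Gapdh, no difference in change was called between macrophage-like and endothelial (-0.09), NK (0.20), monocyte (0.72) or T cell-like cells (1.07), with adjusted p of 0.977, 0.918, 0.512 and 0.215.

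**Figure D5:**
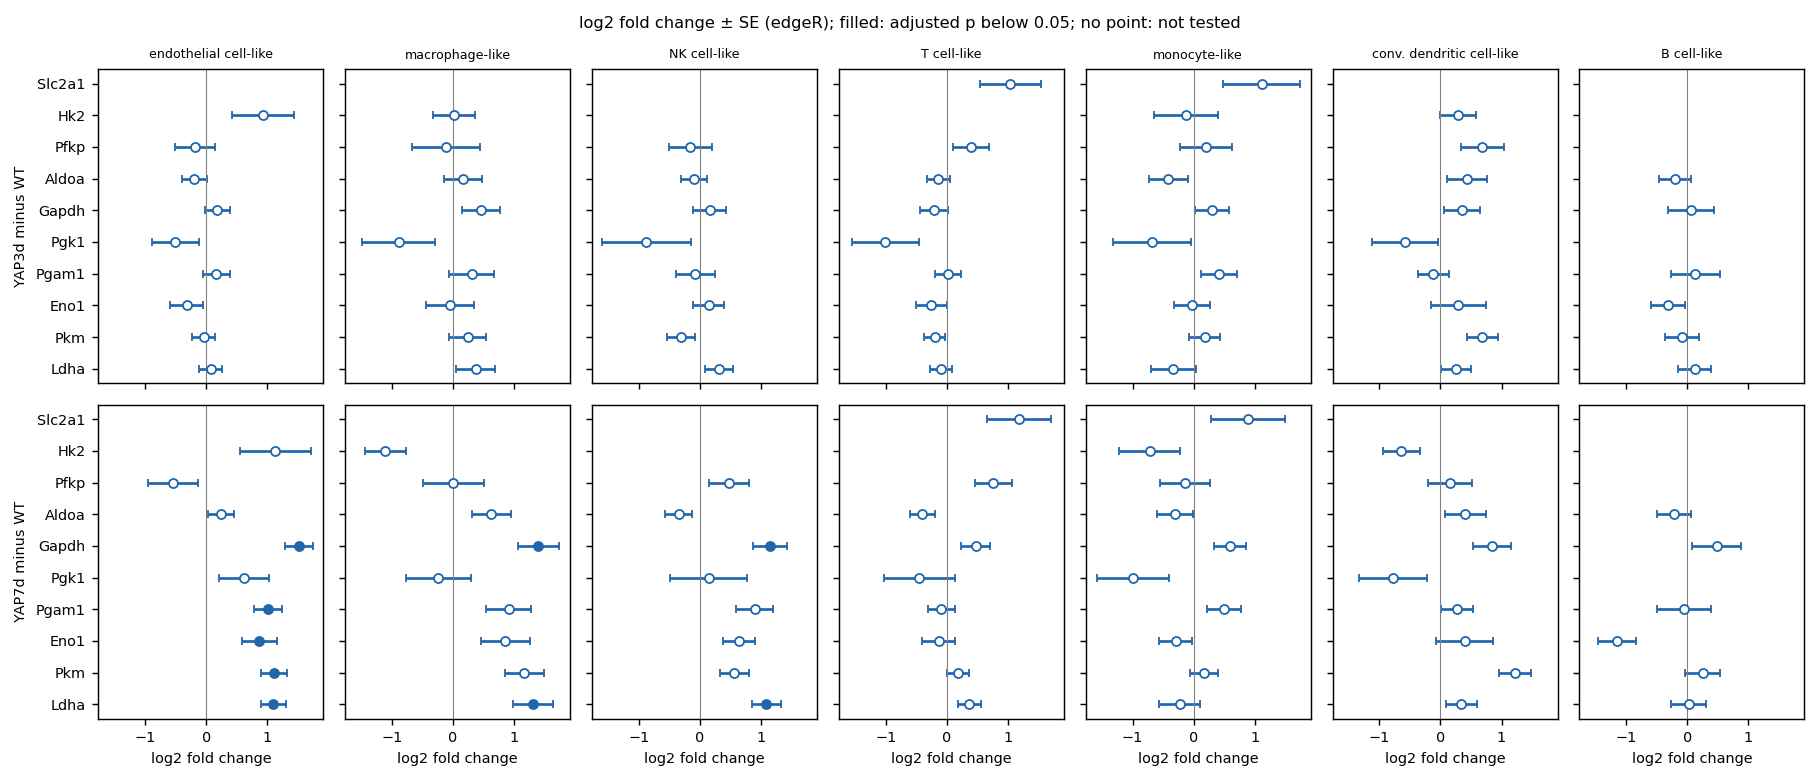
Log2 fold change (horizontal axis, bars of 1 SE) of each of the 10 genes in the 7 tested classes, for YAP3d over WT in the upper row and YAP7d over WT in the lower row, with filled points where the adjusted p was below 0.05. The upper row has no filled point, and the 9 filled points of the lower row lie above 0 in endothelial, macrophage and NK cell-like cells.

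After 3 days of induction nothing was called. None of 60 tests passed between YAP3d and WT by edgeR (0 by DESeq2), 1 of 60 had an unadjusted p below 0.05, against 2.39% over all genes, and 31 of 60 fold changes were above 0. The share of all genes called was 0% in endothelial, 0% in macrophage, 0% in NK, 0% in T, 0% in monocyte, 0% in conventional dendritic and 0% in B cell-like cells, so a count of 0 matches that of all genes. The change of endothelial Gapdh was 0.18 ± 0.21 (SE) and that of macrophage-like Gapdh 0.46 ± 0.31 (SE), with adjusted p of 1 and 0.999.

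Against YAP3d, the YAP7d libraries again showed the rise in endothelial and NK cell-like cells; this comparison shares its YAP7d libraries with the one above. Of its 60 tests 10 were called, against 5.55% of the tests over all genes, and in 21 of 60 the libraries did not overlap, against 16.7%. In endothelial cell-like cells 6 of 9 genes were called, against 17.9% of all genes: Gapdh (1.33, adjusted p = 6.86e-05), Eno1 (1.19, 0.00335), Pkm (1.15, 9.69e-05), Pgk1 (1.13, 0.0498), Ldha (1.03, 0.000209) and Pgam1 (0.85, 0.00627), all as log2 fold changes from edgeR. With the term for the Gm10709 split, 4 of the 6 were still called, with Pgam1 at 0.92 (adjusted p = 0.0522) and Pgk1 at 1.32 (adjusted p = 0.221). In the single cluster with most YAP7d cells, where YAP3d had 1 library of 10 or more cells, none was called, with Gapdh at 0.87 (adjusted p = 0.222). Pgk1, not called against WT, was 27.8, 13.8, 14.3 and 29.7 CPM in YAP3d and 31.6, 40.6 and 64.6 in YAP7d. In NK cell-like cells 4 of 8 were called, against 15.2% of all genes: Gapdh (0.99, adjusted p = 0.00465), Pgam1 (0.98, 0.00923), Pkm (0.87, 0.00385) and Ldha (0.78, 0.00683). None of the 4 was called in NK cell-like cells once the proliferating cells were left out, nor with the Gm10709 term (Gapdh 0.95 (adjusted p = 0.068)).

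The other 5 classes gave no call against YAP3d by edgeR or DESeq2. The counts at an unadjusted p below 0.05 were 6 of 9 in macrophage-like, 3 of 9 in T cell-like, 2 of 9 in conventional dendritic, 1 of 6 in B cell-like and 0 of 10 in monocyte-like cells, against 12.6%, 13.8%, 8.80%, 6.41% and 3.82% of all genes. The shares of all genes called by adjusted p were 0.390% in macrophage, 1.27% in T, 0.0502% in conventional dendritic, 0% in B and 0% in monocyte-like cells. In macrophage-like cells, 6 genes were called without YAP3d replicate 2, which for Ldha stood at 568 CPM against 276 to 293 in the other YAP3d libraries. The share of all genes called in that fit is not given here. For Hk2, the change from YAP3d to YAP7d in macrophage-like minus that in NK cell-like cells was -3.33 ± 0.90 on the log2 scale (SE, adjusted p = 0.0448, edgeR interaction), but NK cell-like Hk2 rested on 0 to 16 UMIs per library.

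In all cells of a library summed, Gapdh, Pgam1, Pkm and Ldha rose from WT to YAP7d, 4 of 10 genes against 18.0% of all genes. Gapdh was 494 and 661 CPM in WT, 661, 1035, 590.4 and 644 in YAP3d and 1328, 1183 and 1752 in YAP7d (1.49 ± 0.34 (SE), adjusted p = 0.016, edgeR). In such a sum a change in the mix of classes and a change of RNA per cell cannot be told apart: endothelial cell-like cells went from 44.2% to 4.16% of cells on average and macrophage-like cells from 5.31% to 30.9%. Hk2 over all cells was 23.5 and 40.8 in WT and 66.2, 58.2 and 48.7 in YAP7d, higher without overlap (0.96 ± 0.33 (SE), adjusted p = 0.0663), while within macrophage-like cells its estimate was below 0. None of the 4 was called without WT replicate 1 (Gapdh 1.25 (adjusted p = 0.147)) or WT replicate 2 (Gapdh 1.77 (adjusted p = 0.0615)), and 2 were called without YAP7d replicate 3. Between YAP3d and WT no gene of the 10 was called, against 0% of all genes, and between YAP7d and YAP3d 3 were called (Gapdh, Pkm and Ldha), against 16.5%. Without YAP3d replicates 1, 3 or 4 or YAP7d replicate 3 that last count was 0, without YAP3d replicate 2 it was 6, and without YAP7d replicate 1 it was 1.

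The other genes of glycolysis and glucose uptake, 35 in the list, were called in endothelial and NK cell-like cells. In endothelial cell-like cells 2 of 10 tested rose and 1 fell between WT and YAP7d, where 18.5% of all genes were called. Gpi1, which makes the substrate of phosphofructokinase, went from 127 ± 39.8 to 229.5 ± 17.03 CPM (0.88 ± 0.24 (SE, adjusted p = 0.0137) in edgeR). Tpi1, which interconverts the 3-carbon sugars, went from 79.7 ± 22.4 to 145 ± 14.8 (0.90 ± 0.25 (SE, adjusted p = 0.0139)). Ldhb fell from 135 ± 21.5 to 50.96 ± 7.16 CPM (-1.40 ± 0.27 (SE, adjusted p = 0.00083)), so the Ldha and Ldhb subunits changed in opposite directions in these cells. In NK cell-like cells, where 8.92% of all genes were called, Tpi1, 1 of 4 tested, rose from 94.4 ± 11.9 to 291 ± 5.91 CPM (1.78 ± 0.28 (SE, adjusted p = 0.00028)).

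In macrophage-like cells 0 of 10 of those genes were called by edgeR, with Tpi1 at 0.90 ± 0.34 (SE, adjusted p = 0.158), Gpi1 at 0.71 ± 0.34 (SE, adjusted p = 0.267), Hk3 at -0.75 ± 0.35 (SE, adjusted p = 0.252), Hk1 at -0.34 ± 0.58 (SE, adjusted p = 0.824), Pfkl at 0.35 ± 0.53 (SE, adjusted p = 0.793) and the lactate exporter Slc16a3 at -0.15 ± 0.53 (SE, adjusted p = 0.967). None was called in the other 4 classes, where 2 to 12 of the 35 were tested. In the pentose phosphate pathway, which branches off at glucose 6-phosphate, the transketolase Tkt rose in endothelial (1.03 ± 0.26 (SE, adjusted p = 0.00822)) and NK cell-like cells (1.26 ± 0.32 (SE, adjusted p = 0.0159)), 1 of 6 tested in each. Pdk1, the kinase that holds pyruvate back from mitochondria, rose in endothelial cell-like cells (1.07 ± 0.37 (SE, adjusted p = 0.0469)), 1 of 9 tested of its list. In endothelial cell-like cells, where 18.5% of all genes were called, 1 of 6 and 1 of 9 are near or below that share. In NK cell-like cells, where 8.92% of all genes were called, 1 of 6 is a single gene.

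Of the HIF, MYC and hypoxia genes, 1 of 16 tested rose and 3 fell in endothelial cell-like cells, a share near the 18.5% of all genes. Myc went from 5.82 ± 1.54 CPM in WT to 60.7 ± 8.500 in YAP7d (3.27 ± 0.49 (SE, adjusted p = 9.11e-05)). Epas1, the HIF-2 alpha subunit typical of endothelium, fell by 1.74 on the log2 scale (adjusted p = 6.79e-05, edgeR), as did the HIF prolyl hydroxylase Egln1 (-1.37 ± 0.38 (SE, adjusted p = 0.0148)) and the mitophagy receptor Bnip3l (-0.71 ± 0.23 (SE, adjusted p = 0.0323)). Hif1a stood at -0.12 ± 0.31 (SE, adjusted p = 0.833). In macrophage-like cells none of 12 was called, with Myc at 0.49 ± 0.60 (SE, adjusted p = 0.722) and Hif1a at -0.85 ± 0.43 (SE, adjusted p = 0.296), and in NK cell-like cells Bnip3l fell (-1.04 ± 0.31 (SE, adjusted p = 0.038)), 1 of 4 tested. Heat shock and dissociation genes also moved, with 11 of 16 lower in endothelial, 5 of 14 in NK and 1 of 16 in macrophage-like cells, and their part in the values above was not tested.

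Across the 7 tested classes, the mean standardized level of the 10 genes was highest in monocyte-like cells (1.05) and lowest in endothelial (-0.54) and B cell-like cells (-1.13), with conventional dendritic (0.40), NK (0.11), macrophage (0.09) and T cell-like cells (0.02) between. Among 4654 genes outside the lists, those with the profile most like it over the 7 classes were Ptpre (Pearson r = 0.986), Arpc4 (0.965), Osm (0.960), Ube2l3 (0.946) and Ccrl2 (0.945). These are likenesses of means over classes that share libraries. Copies that could share reads were low, with Eno1b at 0 to 37.8 CPM and Aldoart1, Aldoart2, Gapdhs and Pgk2 at no more than 6.65 CPM in any class and library. With Eno1b added to Eno1, the endothelial change was 0.82 (adjusted p = 0.0538) and so no longer called.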

How the data were processed

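Single cells of 9 mouse liver libraries (WT, n = 2; YAP3d, n = 4; YAP7d, n = 3) were analysed from 1 deposited table of UMI counts per gene and cell, with no normalization. Per the labels and the study's methods, the authors made these counts with 10x 3' chemistry, Cell Ranger and the mm10 genome, and clustered cells with Seurat 2. The counting of intronic reads is not given in the sources used here.

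Cells with at least 200 genes were kept (8527 of 8562), and 353 of 8562 cells had more than 10% mitochondrial counts and were left in. Log-normalized counts were clustered with scanpy 1.11.5 (Leiden, resolution 1, 25 clusters, 30 components, 2418 genes, none of the 10 glycolysis genes). Clusters were named only from markers (195 of 198 in the table) and from at least 3 of them, and 22 cells stayed unnamed. Such rebuilt names can differ from the study's. Scrublet called 60 cells (0.704%) as doublets, which were kept, and leaving them out was an alternative. Cells are not replicates: raw counts were summed per library and class (at least 10 cells) and fitted with edgeR 4.0.16 in R 4.3.3 (filterByExpr, TMM, robust quasi-likelihood, the 3 groups together), with Benjamini-Hochberg adjustment over all genes tested and a threshold of 0.05. SE is the absolute log2 fold change divided by the square root of F. Differences between classes were tested as an interaction with the library as a block. Levels between classes were compared by description only. DESeq2 1.42.0 was an alternative, with others for scaling, filters, cell limits, subsets and left-out libraries. The scripts were tested on simulated data.

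The 10 genes and all lists were chosen with earlier results of these data known. The genes named are the 10, called genes of the other lists (at most the 5 largest changes per class), Slc2a2, Slc2a3, Gpi1, Tpi1, Hk1, Hk3, Pfkl, Ldhb, Slc16a3, Hif1a and Myc, and the 5 genes of most similar profile. Gm10709, Yap1, the copies of the 10 genes, marker and top genes of clusters, and, after their values were seen, Pklr and Fbp1 are named besides. The joined dendritic class was chosen after seeing the data. Depth was 1314878 to 25056881 UMIs per library, and intervals for counts of 0 cover counting error only. A level against another gene's is not adjusted for length, so genes were not ranked against each other. Some hepatocyte isozymes are not reported here.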

Additional observations from a re-analysis of the deposited data

Results flagged for a closer look

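In groups of 4 libraries, a library was examined when its distance to the nearest other exceeded Dixon's limit; 60 groups of a gene and a class were examined, 4 passed, and chance passes about 1 in 20. Pgk1 in B cell-like cells was 28.18 CPM in YAP3d replicate 4 and 0 in the other 3 YAP3d libraries. Aldoa in conventional dendritic cell-like cells was 194.8 CPM in YAP3d replicate 1 and 342.5 to 345.9 in the others. Pfkp in macrophage-like cells was 31.12 CPM in YAP3d replicate 4 and 15.31 to 17.22 in the others. Ldha in macrophage-like cells was 568.3 CPM in YAP3d replicate 2 and 275.5 to 292.9 in the others; the same library held the highest share of proliferating macrophage-like cells of its group (70.0%), and the part of that share in the value was not tested.

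Changes of 2 genes differed between classes by the interaction test of edgeR. The change of Eno1 in macrophage-like minus B cell-like cells was 2.06 from WT to YAP7d (adjusted p = 0.0276) and 1.857 from YAP3d to YAP7d (adjusted p = 0.0283), on the log2 scale. The change of Hk2 was -2.374 from WT to YAP7d in macrophage-like minus endothelial cell-like cells (adjusted p = 0.0104) and -3.326 from YAP3d to YAP7d in macrophage-like minus NK cell-like cells (adjusted p = 0.0448).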

How the results depend on the processing

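The signs of the called fold changes were kept under every alternative run except for Eno1 in endothelial cell-like cells, which was -0.018 in the single cluster with most YAP7d cells. The counts of called genes given here are for YAP7d minus WT unless another comparison is named, and where no value shows a cause, the cause was not tested. Counts under an alternative, here and above, are given without the share of all genes called under it. In endothelial cell-like cells (5 called) the count was 0 in that cluster, where WT and YAP3d had 1 library each that is assumed to vary like the YAP7d libraries, 1 with a term for libraries with Gm10709, 4 by DESeq2 (Eno1 at an adjusted p of 0.0547), and 4 to 5 with 1 library left out. In macrophage-like cells (2) it was 3 by DESeq2 (Pkm added), 0 with at least 30 cells per library, without cells under 4000 UMIs, with monocyte-like cells added, without cells of 2 or more proliferation UMIs or over 0.1%, with stricter cell limits (500 genes or more, 10% mitochondrial counts or less), and with the Gm10709 term; it was 1 in the clusters high in Kupffer markers, 5 in a fit of only the 2 groups, and 0 to 5 with 1 library left out. In NK cell-like cells (2) it was 0 under both exclusions of proliferating cells and with the Gm10709 term, 5 with a term for libraries over 1000 cells, and 0 to 2 with 1 library left out. In conventional dendritic cell-like cells (0) it was 1 by DESeq2, with adjustment over all classes, with no filter, with only the 2 groups and with the replicate block (Pkm each time), and 0 to 1 with 1 library left out. In B cell-like cells (0) it was 1 (Eno1) with adjustment over all classes and with the term for large libraries. In all cells (4) it was 0 with the Gm10709 term and 0 to 5 with 1 library left out. For YAP3d minus WT, the replicate block gave 1 call in T cell-like cells (Pgk1).

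For YAP7d minus YAP3d, endothelial cell-like cells (6) gave 0 in the same cluster, 4 with the Gm10709 term, 5 by DESeq2 (without Pgk1) and 5 to 7 with 1 library left out. Over both comparisons, 10 calls within classes were kept and 9 lost without cells over 0.1% proliferation UMIs. Not every endothelial call against YAP3d was among those kept. Macrophage-like cells (0) gave 4 with adjustment over all classes, 5 with no filter, 1 in the cluster low in Kupffer markers, 1 without cells over 0.1% proliferation UMIs, and 0 to 6 with 1 library left out. NK cell-like cells (4) gave 0 with at least 30 cells per library, 1 without cells under 4000 UMIs, 2 in the cluster with most YAP7d cells, 0 under both exclusions of proliferating cells, 0 with the Gm10709 term, and 4 to 5 with 1 library left out. T cell-like cells (0) gave 1 with no filter, 2 with the replicate block and 2 with the term for large libraries. All cells (3) gave 0 with the replicate block, 0 with the Gm10709 term, and 0 to 6 with 1 library left out. Of the differences between classes, the 2 called for YAP7d minus WT became 1 without doublets, 0 without cells under 4000 UMIs and 1 with the stricter cell limits, and 0 to 11 with 1 library left out; the 2 for YAP7d minus YAP3d became 1 with library sizes alone, 0 without cells under 4000 UMIs, 1 with no filter and 1 with the stricter cell limits, and 0 to 9 with 1 library left out. Single calls near the threshold were also lost: endothelial Eno1 against WT with adjustment over all classes (adjusted p = 0.103) and without cells under 4000 UMIs (0.0963), endothelial Pgk1 against YAP3d under these (0.12 and 0.0593), with library sizes alone (0.0599) and at resolution 2 (0.0501), and Pkm in all cells with library sizes alone (0.0579 against WT and 0.0604 against YAP3d).

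Replicate numbers pair no samples by the labels, and deviations of same-numbered libraries correlated with mixed signs, so the block results above are counts only; under the block, 20 of 26 calls were kept. The Gm10709 term, the term for large libraries, the proliferation share limit and the cluster subsets were chosen after seeing the data. Scaling by library sizes alone moved the median of all genes in NK cell-like cells by -0.14 (YAP7d minus WT) and -0.16 (YAP7d minus YAP3d) on the log2 scale and by less than 0.1 in the other classes. The 5 genes highest in hepatocyte-like cells and the 4 lowest in B cell-like cells were the same number under the alternatives for levels. The levels of the 10 genes were checked with dendritic types 1 and 2 joined, so not in each class given above. Of these levels, 2 of 100 moved by more than 1 SD at resolution 2, 3 of 90 without cells under 4000 UMIs and 5 of 100 with TMM over all classes. With 2 WT libraries and 10 to 100 cells per class in some libraries, depth limits the genes of few UMIs, among them Slc2a1, Pgk1 and, outside myeloid cells, Hk2.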

Other observations

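Pgk1, the first ATP-yielding kinase, was often highest in the largest library of a group. In WT, YAP3d and YAP7d, 1 library each held over 1000 cells, and in 18 of 21 combinations of a class and a group that library had the highest Pgk1 of its group, as in endothelial cell-like cells at 17.7 and 45.8 CPM in WT, where the second library is the large one. The same was so in 14 of 21 for Gapdh, 13 of 21 for Aldoa and for Eno1, and 2 of 21 for Pfkp. Only the largest library of a group was compared, and the other libraries need not follow size. Endothelial Pgk1 was 27.8 CPM in YAP3d replicate 1, with 293 cells the smallest library, and 13.8 and 14.3 in replicates 2 and 3. These combinations share libraries, the pattern was noticed in the data, and it was neither tested nor counted over all genes.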
